A study of Mus musculus with 37 samples.

Results

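Transcripts of 10 collagen and basement membrane genes were compared across brown adipose tissue of the BXD panel, whose inbred strains each carry a mosaic of the C57BL/6J and DBA/2J genomes. The genes were chosen by symbol, and each was read from its probe set with the highest mean over the BXD arrays. They were 10 of 24657 different gene symbols on the array, and all 10 were found. They comprised the fibrillar collagen chains Col1a1, Col1a2, Col3a1 and Col5a1, the beaded filament chain Col6a1, the fibril crosslinking enzyme Lox, the collagen IV chains Col4a1 and Col4a2, the laminin chain Lama4, and Pxdn.

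The data comprised 37 Affymetrix mouse gene arrays, with 35 BXD strains and the parents C57BL/6J and DBA/2J on 1 array each. All mice were males of 29 weeks on standard chow, fasted overnight and perfused before the tissue was frozen. RNA of about 5 mice per strain was pooled before hybridisation, so the animals of a strain had no separate values and no replicate existed within a strain. The number of arrays therefore limits the precision of every value, and the genes compared across strains share the array and the RNA pool. Values are in rescaled units, set by the authors so that the probe sets of an array average 8 with an SD of 2. How such a unit relates to the log2 scale is not given in the sources used here, so folds are nominal and treat it as a log2 unit.

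Fibrillar collagens are secreted as triple helices that assemble into the fibrils of the interstitial matrix, where lysyl oxidase (Lox) prepares them for crosslinking. Basement membranes are thin sheets under endothelium and around adipocytes, built on networks of collagen IV and laminin. Peroxidasin, encoded by Pxdn, forms the sulfilimine bonds that crosslink collagen IV, and fat cells, fibroblasts and vessel cells each deposit part of this matrix. The comparison asked whether fibrillar and basement membrane genes varied together from strain to strain.

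The tissue was checked against its markers first. All 7 brown adipocyte markers lay above the background limit of 7.94, which is the 95th percentile of 1128 olfactory receptor probe sets, and Ucp1, the uncoupling protein of brown fat, had a mean of 15.37. Liver transcripts stood apart in BXD70. The mean of 8 liver markers was 12.58 there and 10.55 in DBA/2J, against a median of 6.93 over the BXD arrays, and albumin (Alb) reached 14.96 in BXD70. Skeletal muscle transcripts also differed between arrays, with a mean of 10 muscle markers from 9.76 in BXD65 to 13.60 in BXD97. Results that rest on BXD70 are given with and without it.

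All 10 genes lay above the background limit on average. Col1a1, a chain of type I collagen, averaged 10.69 ± 0.39 (SD, n = 35 strains), from 10.07 in BXD48 through a median of 10.64 to 11.53 in BXD61. Its range of 1.46 units is a nominal 2.75-fold, and its SD exceeded that of 89.8% of the probe sets above background. Col3a1, the chain of type III collagen found beside type I in soft tissue, spanned 1.47 units, from 9.71 in BXD48 through 10.41 to 11.18 in BXD92. Col1a2, the partner chain of Col1a1, ran from 9.73 in BXD95 through 10.24 to 10.81 in BXD69. BXD61, BXD92, BXD97 and BXD69 were among the 5 highest strains for all 3 of these chains, and BXD48 was lowest or next to lowest for each.

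Col5a1, whose type V chain helps to start fibrils, varied less, from 8.77 in BXD43 through 9.21 to 9.70 in BXD80. Its SD was 0.27. Col6a1 ran from 10.46 in BXD43 through 11.06 to 11.65 in BXD97, with an SD of 0.30. Lox ran from 9.65 in BXD90 through 10.28 to 10.91 in BXD65, with an SD of 0.34. BXD65 and BXD61 were the highest strains for Lox, whereas its lowest strains, BXD90 and BXD81, were not the lowest for any collagen.

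Among the basement membrane genes, Col4a1, Col4a2 and Lama4 each spanned less than 1 unit. Col4a1 ran from 9.68 in BXD95 through a median of 10.13 to 10.58 in BXD97, with an SD of 0.25 and a nominal range of 1.87-fold. Col4a2 ran from 9.79 through 10.18 to 10.58, with an SD of 0.22, and BXD95 was again lowest and BXD97 highest. Lama4, the laminin chain of vessel and adipocyte basement membrane, ran from 11.63 in BXD92 through 11.94 to 12.36 in BXD103. It was the steadiest of the 10, with an SD of 0.15 that exceeded the SD of 23.4% of the probe sets above background. Pxdn ran from 10.73 in BXD83 through 11.37 to 11.85 in BXD103, with an SD of 0.25 and a nominal range of 2.17-fold. For Lama4 and Pxdn, BXD103 was the highest strain, while its Col1a1 ranked 32 of 35 from the top.

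**Figure D1:**
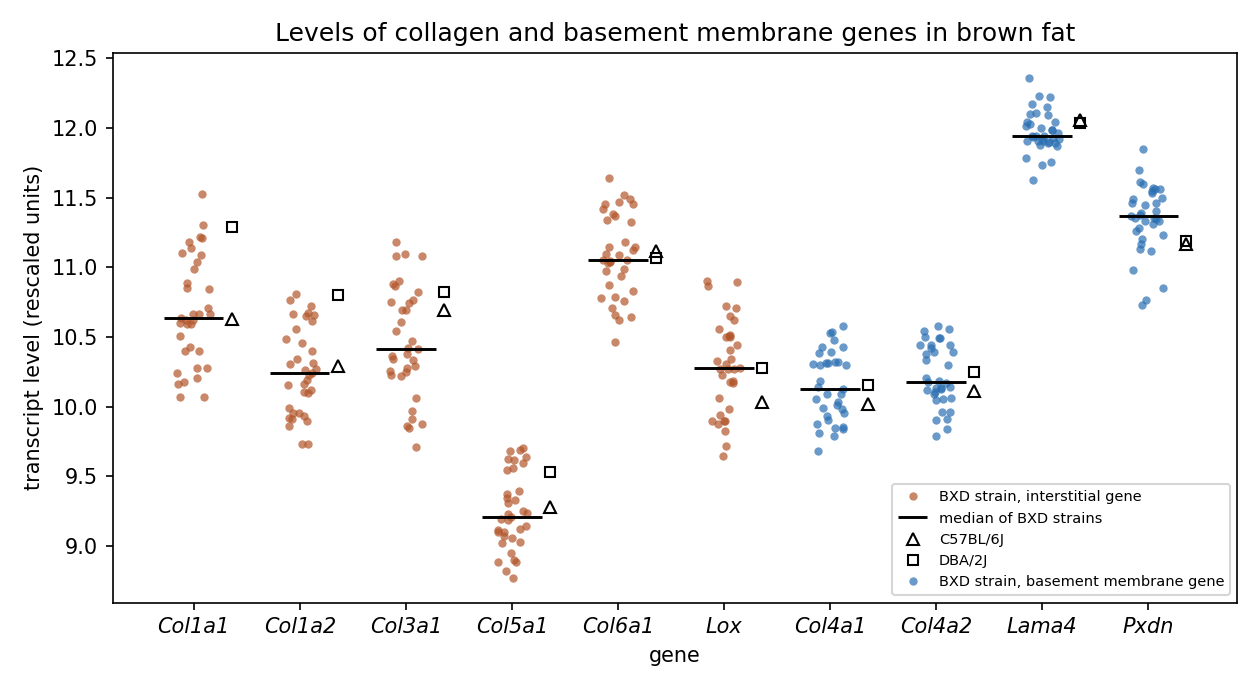
Transcript level in rescaled units (vertical axis) of each gene (horizontal axis) in 35 BXD strains, 1 point per strain, with the median as a bar and the parents as open symbols. Spread within a gene can be compared, levels of different genes cannot; Col1a1 spans 10.07 to 11.53 and Lama4 spans 11.63 to 12.36.

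Col1a2, Col5a1 and Col6a1 had further probe sets, which did not all follow the brightest one. The other Col1a2 probe set, at a mean of 7.80 below the background limit of 7.94, had r = 0.769 with the one used. The others of Col6a1, at means of 8.52 and 9.06 above that limit, had r = 0.747 and 0.198. The other Col5a1 probe set, at a mean of 7.98 close to background, had r = -0.045 (all n = 35 strains, given as a description of the probes).

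Strain order was shared among the collagens. BXD97 was among the 5 highest strains for all 7 collagen chains, BXD69 for 5, and BXD61, BXD66 and BXD96 for 4 each. BXD97 also had the highest mean of the skeletal muscle list (13.60) and the lowest of the brown adipocyte list (11.99), and their part in this order was not tested. BXD89 was among the 5 lowest for all 7, BXD95 for 6, BXD48 for 5 and BXD43 for 4. BXD92 had the highest Col3a1 and the lowest Lama4. BXD70, the array with liver transcripts, ranked 13 for Col1a1, 28 for Col1a2 and 33 for Col6a1, so its chains did not hold a common place.

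Relations between genes were computed for all 45 pairs of the 10 genes. A pair was called when limma, fitted to all probe sets with either gene as the covariate, gave an adjusted p under 0.05. This held for 27 of the 45 pairs, all positive. The share of all probe sets that rose with the covariate was 2.25% for Col1a1, 2.99% for Col1a2, 2% for Col3a1, 2.51% for Col5a1, 2.89% for Col6a1, 0.391% for Lox, 2.53% for Col4a1, 1.53% for Col4a2, 0% for Lama4 and 0% for Pxdn. Among the 7 collagen chains all 21 pairs were called, with either chain as covariate. Within the 6 interstitial genes 15 of 15 pairs were called, within the 4 basement membrane genes 1 of 6, and between these groups 11 of 24.

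The 4 fibrillar chains followed each other closely. Their 6 pairs had r from 0.771 to 0.918, with a median of 0.858. For Col1a1 and Col3a1, r was 0.918 (95% interval 0.843 to 0.958) and rho 0.91, each with a permutation p of 1e-05, the smallest that 100000 permutations can give. Col3a1 rose by 0.37 ± 0.03 units (SE) per SD of Col1a1, with a limma adjusted p of 1.09e-10. For Col1a1 and Col1a2, r was 0.906 and rho 0.912 (permutation p 1e-05 each), with r = 0.934 without BXD70. Leaving out BXD61 and BXD92, the strains farthest from the median of Col1a1, r was 0.906 with Col3a1 and 0.898 with Col1a2. These tests are two-sided and cover the 35 strains.

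Col6a1 went with the fibrillar chains as well, with r from 0.778 to 0.857 over 4 pairs. Its closest partner by r was Col5a1, with r = 0.857 and rho = 0.791 (permutation p 1e-05 each, not adjusted for picking the highest r). Without the strains farthest from the median of Col5a1 this r was 0.851. By rho the closest partner of Col6a1 was Col1a2, with rho = 0.824. Without BXD70, r of Col6a1 with Col1a1 was 0.826 in place of 0.778.

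Lox had lower correlations with the collagens, with r from 0.443 to 0.581 over 7 pairs, of which 6 were called. With the first principal component as a second covariate 5 of these 6 calls were lost, leaving Lox with Col4a1, and without BXD61 alone 4 were lost. Without the 2 strains farthest from the median of the covariate, 3 were lost. With the mean of probe sets, the calls of Lox with Col1a2 and Col5a1 were lost. Leaving out 1 other strain ended the call with Col3a1 (BXD81 or BXD92), with Col5a1 (BXD90) or with Col1a2 (BXD95). Differences between correlations were not tested. With Col1a1, r was 0.566 and rho 0.548 (permutation p 0.00036 and 0.0008), and Lox rose by 0.19 ± 0.05 units per SD of Col1a1 (limma adjusted p 0.0145). With the principal component this slope was 0.17 (adjusted p 0.0944), close in size though not called. Without BXD61 and BXD92 this r was 0.456, the slope 0.14 and the adjusted p 0.136, so with Col1a1 as covariate the call rests on those strains. With Lox as covariate the pair was still called without the 2 strains farthest from the median of Lox. Leaving out BXD61 alone gave an adjusted p of 0.0611. With Col4a1, r was 0.581 and rho 0.619 (permutation p 0.00031 and 0.0001). With Lox as covariate, Col4a1 had an adjusted p of 0.0379, and it did not pass with arrays centred on the median (0.0565), with muscle markers (0.0673) or the principal component (0.103) as a second covariate, or without the 2 farthest strains (0.0729). It also did not pass without BXD45, BXD51, BXD55, BXD61, BXD66, BXD69, BXD79, BXD80, BXD90, BXD92, BXD95, BXD96 or BXD97 alone, with adjusted p from 0.0512 to 0.0844. The slope of Col4a1 per SD of Lox was 0.14 over the 35 strains, 0.14 under each of these 4 settings and 0.13 to 0.14 without those single strains, so the calls were lost at slopes of much the same size. In those settings the pair was called with Col4a1 as the covariate. The pairs of Lox with Col1a2, Col3a1 and Col5a1 passed only with the collagen as the covariate.

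**Figure D2:**
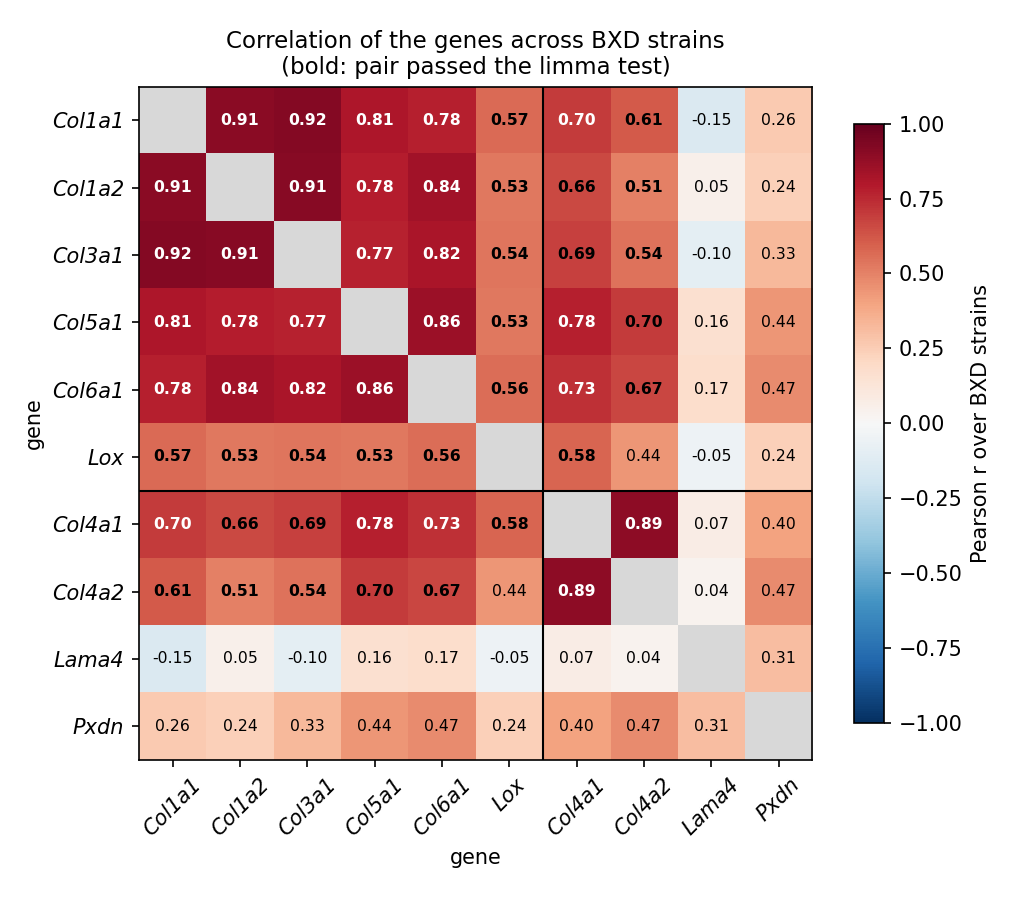
Pearson r over 35 BXD strains for each pair of the 10 genes, on both axes in the same order, with interstitial genes before the black line and basement membrane genes after it; bold numbers mark called pairs. Collagen chains form a block from 0.505 to 0.918, and the rows of Lama4 and Pxdn hold no called pair.

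The collagen IV chains Col4a1 and Col4a2 formed the only called pair within the basement membrane genes. Their r was 0.894 (95% interval 0.799 to 0.946) and rho 0.868, each with a permutation p of 1e-05, and r was 0.87 without BXD97 and BXD95. Col4a2 rose by 0.20 ± 0.02 units per SD of Col4a1 (limma adjusted p 1.1e-07). Both chains had the same 15 strains above and the same 20 strains below a gap in their levels, from 10.18 to 10.30 for Col4a1 and from 10.21 to 10.30 for Col4a2. This gap was picked after the values were seen, as the widest with at least 6 strains on each side, and gaps of 0.05 to 0.16 units were found for the other 8 genes.

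Col4a1 and Col4a2 lie next to each other on chromosome 8 and are read in opposite directions. Promoter windows from RefSeq (build GRCm38.p6, 250 bases before to 50 after each start) were at hand for 7 of the 10 genes: Col1a2, Col3a1, Col5a1, Col6a1, Col4a1, Col4a2 and Pxdn. The windows of the collagen IV chains share 78 bases, and their annotated starts overlap by 22 bases. The overlap is shown because these chains were the closest pair among the basement membrane genes. It is printed on the plus strand with 4 bases on either side, at chr8:11312801-11312830, and capitals mark the bases that lie after both starts.
Col4a1 and Col4a2: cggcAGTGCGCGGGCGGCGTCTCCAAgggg

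Short promoter motifs were searched on both strands in these windows: the CCAAT box (letters CCAAT), the GC box (letters GGGCGG) and the TATA box (letters TATAAA), which did not overlap. Of 32851 windows, 37.4% held the CCAAT box, 35.7% the GC box and 13.6% the TATA box. A CCAAT box was found in the windows of Col1a2, Col4a1, Col4a2 and Pxdn, and a GC box in those of Col1a2, Col5a1, Col4a1, Col4a2 and Pxdn. The window of Col3a1 held a TATA box, and that of Col6a1 none of these letters. The 250 bases before the start are printed for Col1a2 (chr6:4505368-4505617, plus strand), 1 of the 7 collagen chains whose pairs with each other were all called, although its call with Col4a2 was lost in 19 of 35 fits that left out 1 strain, and for Pxdn (chr12:29937786-29938035, plus strand), which had no called partner over the 35 strains. Capitals mark the motifs on either strand. A match is a description of the letters and no evidence of binding.
Col1a2: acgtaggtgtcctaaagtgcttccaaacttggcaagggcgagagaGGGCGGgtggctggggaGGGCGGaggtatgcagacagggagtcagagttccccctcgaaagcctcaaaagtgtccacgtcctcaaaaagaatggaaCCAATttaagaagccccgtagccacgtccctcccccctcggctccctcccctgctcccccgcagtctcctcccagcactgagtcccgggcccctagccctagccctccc
Pxdn: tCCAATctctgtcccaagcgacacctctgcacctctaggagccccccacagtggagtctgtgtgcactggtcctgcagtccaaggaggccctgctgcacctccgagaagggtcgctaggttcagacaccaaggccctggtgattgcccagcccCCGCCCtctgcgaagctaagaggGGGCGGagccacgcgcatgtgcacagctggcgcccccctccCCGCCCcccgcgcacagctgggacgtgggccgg

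Collagen IV went with the fibrillar collagens across strains. All 8 pairs of a fibrillar and a collagen IV chain were called, with r from 0.505 to 0.776 and a median of 0.674. For Col1a1 and Col4a1, r was 0.702 (95% interval 0.481 to 0.839) and rho 0.679, with permutation p of 2e-05 and 4e-05. Col4a1 rose by 0.17 ± 0.03 units per SD of Col1a1 (limma adjusted p 0.000626), and r was 0.674 without BXD61 and BXD92. Col5a1 had the closest link to Col4a1, with r = 0.776 and rho = 0.755 (permutation p 1e-05 each, not adjusted for picking the highest r). Without BXD80 and BXD69 this r was 0.759. The weakest pair, Col1a2 with Col4a2, had r = 0.505 and rho = 0.502 (permutation p 0.00218 and 0.00247), with limma adjusted p of 0.0428 and 0.0489. Its r was 0.467 without BXD69 and BXD97. It was no longer called without the 2 strains farthest from the median of the covariate, with arrays centred on the median, with the first principal component as a second covariate, or in 19 of 35 fits that left out 1 strain. Col3a1 with Col4a2 (r = 0.544, rho = 0.553, permutation p 0.00087 and 0.00081) was not called without the 2 farthest strains, without BXD89 or BXD97 alone, or with the principal component. Col5a1 with Col4a2 (r = 0.697, rho = 0.651, permutation p 2e-05 and 4e-05) was not called with the mean of probe sets.

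Pxdn, the enzyme that crosslinks collagen IV, had no called pair over the 35 strains. With Col4a1 its r was 0.404 (95% interval 0.082 to 0.65) and rho 0.439 (permutation p 0.0158 and 0.00923), and limma gave an adjusted p of 0.148 with Col4a1 as covariate. With Col4a2, r was 0.475 and rho 0.509 (permutation p 0.00396 and 0.00225), and the adjusted p was 0.0782. Leaving out BXD97 and BXD95, r was 0.345 with Col4a1 and 0.431 with Col4a2. The values with the interstitial genes overlapped these: r was 0.473 with Col6a1 and 0.442 with Col5a1, 0.262 with Col1a1 and 0.239 with Col1a2. All 7 of its correlations with collagens were positive, with a median of 0.404. The Pxdn pairs with Col4a2 and Col6a1 passed under quantile normalization, with dim probe sets left out and with ranks of the covariate, and those with Col5a1 and Col6a1 passed with muscle markers as a second covariate. Leaving out BXD103 alone, Pxdn passed with Col4a2 (adjusted p 0.0393) and Col5a1, and leaving out BXD89, BXD90 or BXD99 alone it passed with Col6a1.

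Lama4 showed no relation to the collagens that could be detected. Its r ran from -0.146 with Col1a1 to 0.174 with Col6a1, and 5 of 7 were positive. The negative values did not hold without the 2 strains farthest from the median of the collagen, where r was 0.001 with Col1a1 and 0.093 with Col3a1 (-0.098 over the 35 strains). With Col4a1, its partner in the basement membrane, r was 0.075 (95% interval -0.265 to 0.399) and rho 0.114 (permutation p 0.669 and 0.515). With Pxdn, r was 0.312 and rho 0.345 (permutation p 0.0695 and 0.0422), and 0.223 without BXD103 and BXD92. Adjusted p was 0.675 with Lama4 and 0.623 with Pxdn as covariate. No probe set passed with Lama4 as covariate in limma, and 3160 of 41154 had an unadjusted p under 0.05.

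**Figure D3:**
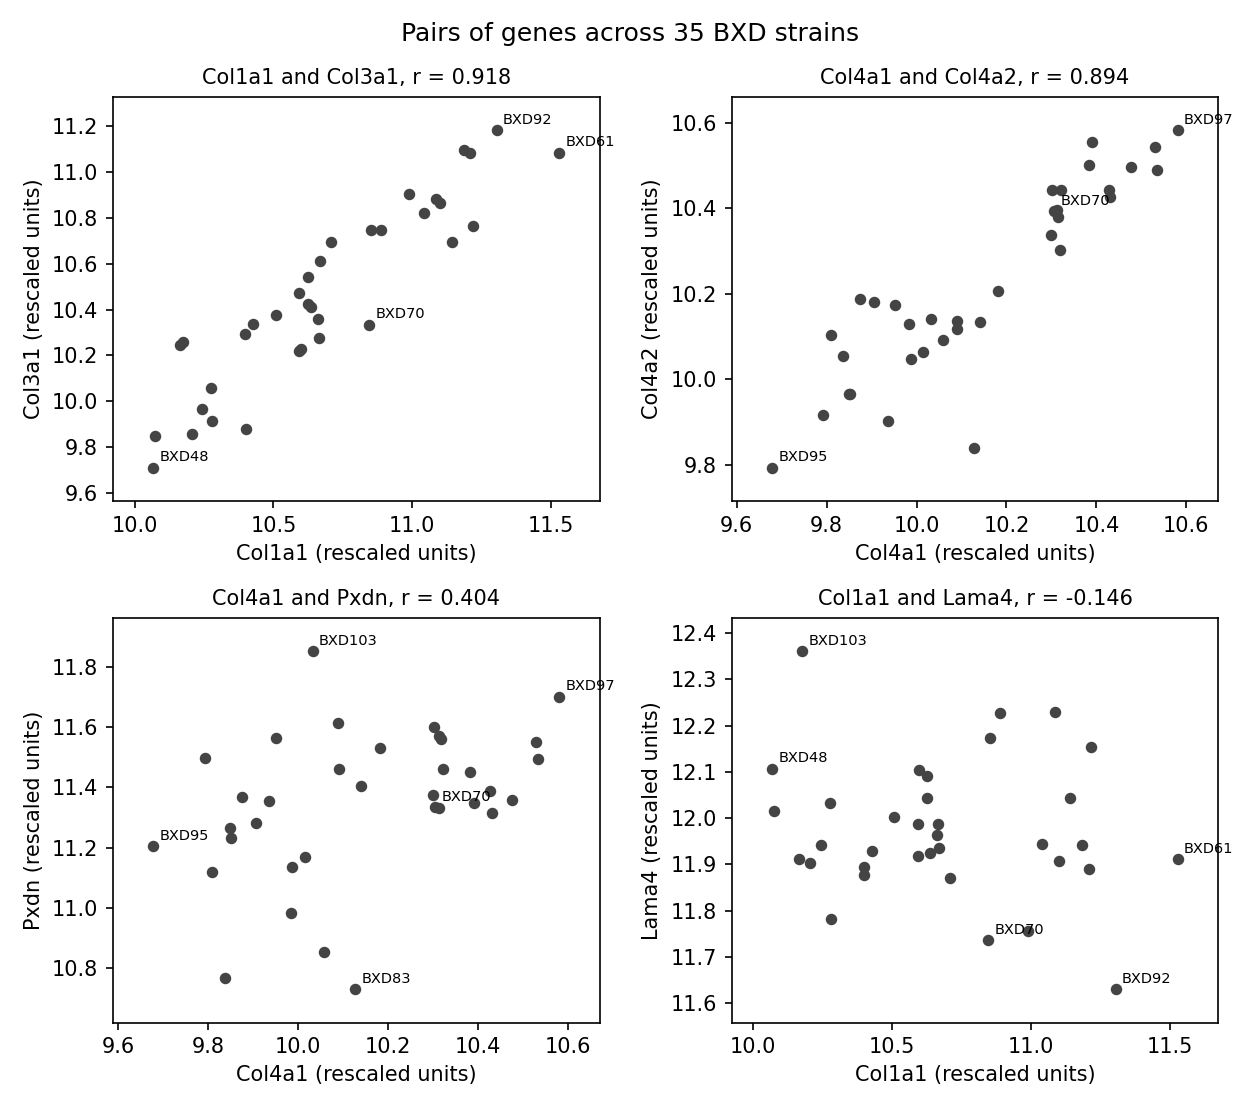
Transcript levels in rescaled units of 4 pairs of genes, 1 gene per axis and 1 point per BXD strain, with the extreme strains and BXD70 named. Col1a1 with Col3a1 (r = 0.918) and Col4a1 with Col4a2 (r = 0.894) lie along a line, while Col4a1 with Pxdn (r = 0.404) and Col1a1 with Lama4 (r = -0.146) are spread out.

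Whether a gene went more with Col4a1 than with Col1a1 was tested directly, as the difference of its slopes when both were covariates. Over all 41153 probe sets tested, 0.00243% had a higher slope on Col4a1 and 0.00486% a higher slope on Col1a1, which is 1 and 2 probe sets. None of the 8 other members passed in limma, and 3565 probe sets had an unadjusted p under 0.05. Col4a2 leaned to Col4a1 by 0.21 units per SD (95% interval 0.11 to 0.31, p 0.000217, adjusted p 0.173). Col3a1 leaned the other way by -0.31 (95% interval -0.46 to -0.16, p 0.000146, adjusted p 0.16), as did Col1a2 by -0.25 (95% interval -0.38 to -0.13, p 0.000272, adjusted p 0.184). Pxdn had a difference of 0.12 (95% interval -0.09 to 0.33, adjusted p 0.793) and Lama4 one of 0.11 (95% interval -0.03 to 0.25, adjusted p 0.677). Col5a1, Col6a1 and Lox had differences of -0.03, -0.04 and 0.02. The named probe sets that leaned to Col1a1 were Cd209d and Cbr2 (adjusted p 0.0394 each), chosen after their values were seen, and the probe set that leaned to Col4a1 had no gene symbol. No probe set passed with the principal component as a further covariate, with ranks or without the 2 farthest strains, nor in 15 of 35 fits that left out 1 strain (BXD45, BXD48, BXD51, BXD61, BXD65, BXD66, BXD69, BXD80, BXD81, BXD84, BXD85, BXD90, BXD92, BXD99 or BXD101).

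Across the array, 924 probe sets rose with Col1a1 (2.25%) and 608 fell (1.48%). With Col4a1, 1040 rose (2.53%) and 1099 fell (2.67%). With dim probe sets left out, 1036 of 19442 rose with Col1a1 and 1170 with Col4a1. Apart from the lymphocyte and liver markers, most genes of each list below lay above background. The numbers without dim probe sets are therefore the closer comparison for those list counts. Of the 9 other members, 7 rose with Col1a1 and 7 with Col4a1, the exceptions being Lama4 and Pxdn in both fits. With Pxdn as the covariate, limma called 0 of 41154 probe sets in either direction (0% and 0%), and 3682 had an unadjusted p under 0.05. The smallest adjusted p was 0.0704. Leaving out BXD61 alone lowered the number of probe sets called with Col1a1 from 1532 to 819. Without BXD70 the numbers were 1598 for Col1a1, 2215 for Col4a1 and 0 for Pxdn. For Pxdn the number was 4 with the parents included and 4 with muscle markers as a second covariate. It was 8 under quantile normalization, 21 with dim probe sets left out and 0 to 7 with single strains left out.

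Further interstitial matrix genes followed Col1a1. Of 17, 14 rose with Col1a1, with a median r of 0.701 against 0.002 over all probe sets. Col5a2, the second chain of type V collagen, rose by 0.18 ± 0.03 units per SD of Col1a1 (limma adjusted p 8.41e-05). Thbs2, a matricellular protein that bears on fibril form, rose by 0.37 ± 0.06 (adjusted p 0.000103), and fibronectin (Fn1) by 0.41 ± 0.07 (adjusted p 0.000313). The small proteoglycan Lum, which binds fibrils, rose by 0.24 ± 0.04 (adjusted p 0.000128). Elastin (Eln), Postn and Col16a1 did not pass. With Col4a1, 10 of the 17 rose, and Fn1, Fbn1, Col12a1 and Col14a1 were among the 7 that did not pass. The lowest adjusted p was that of Col6a2 (1.57e-05), at 0.21 ± 0.03 units per SD.

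Basement membrane genes beyond the 4 members were called about as often in both fits. Of 20, 8 rose with Col1a1 (median r 0.27) and 9 with Col4a1 (median r 0.282). Perlecan (Hspg2), the large proteoglycan of the basement membrane, rose by 0.22 ± 0.03 units per SD of Col4a1 (adjusted p 1.42e-05) and by 0.17 ± 0.04 per SD of Col1a1 (adjusted p 0.00782). The nidogens join laminin to collagen IV. Both rose with both chains. Nid1 rose by 0.25 ± 0.03 per SD of Col1a1 (adjusted p 1.46e-05) and 0.22 ± 0.04 per SD of Col4a1 (adjusted p 0.000669). Nid2 rose by 0.14 ± 0.03 per SD of Col1a1 (adjusted p 0.0118) and 0.18 ± 0.03 per SD of Col4a1 (adjusted p 0.000287). The laminin chains Lamc1 and Lamb2 rose with both, by 0.13 ± 0.02 and 0.14 ± 0.03 per SD of Col1a1 (adjusted p 0.000417 and 0.000891). Lama5 rose with Col4a1 (adjusted p 0.0183) and had an adjusted p of 0.215 with Col1a1. Col4a3, Col4a4, Col4a5, Col4a6, Lama1 and Lama3 were among the genes that did not pass, and these lay below background on average. Lamb1, Lamb3, Lamc3 and Agrn lay above background and passed in neither fit. Their r ran from -0.177 to 0.357 with Col1a1 and from 0.078 to 0.331 with Col4a1. In the direct comparison of slopes, 0 of the 17 interstitial and 0 of the 20 basement membrane genes differed between Col4a1 and Col1a1.

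Genes for making, linking and removing collagen moved in part with the chains. Of 19 genes for modification and crosslinking, 8 rose with Col1a1 and 6 with Col4a1. Bmp1, which trims the procollagen end, rose by 0.22 ± 0.03 units per SD of Col1a1 (adjusted p 3.19e-05). Its enhancer Pcolce rose by 0.38 ± 0.07 (adjusted p 0.00113), and the Lox relative Loxl1 by 0.23 ± 0.04 (adjusted p 0.000714). A list of 11 genes for breakdown also held its inhibitors Timp1, Timp2 and Timp3. Of these 11, 6 rose with Col1a1, Timp2 among them (adjusted p 0.00422), and 4 with Col4a1, Timp1 among them (adjusted p 0.0382), whose mean of 7.73 lay below the background limit. The gelatinase Mmp2 rose by 0.27 ± 0.05 (adjusted p 0.000388) and Mrc2, a receptor that takes up collagen fragments, by 0.15 ± 0.03 (adjusted p 0.000761) per SD of Col1a1. Mmp14 rose by 0.18 ± 0.03 per SD of Col4a1 (adjusted p 0.000486).

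Among 16 matrix signals and receptors, 7 rose with Col1a1 and 10 with Col4a1, against 2.25% and 2.53% of all probe sets. The collagen receptor Ddr2 rose by 0.25 ± 0.04 units per SD of Col1a1 (adjusted p 8.93e-05). The integrin chain Itgb1 rose by 0.13 ± 0.03 per SD of Col4a1 (adjusted p 0.000996), and the laminin receptor chain Itga6 by 0.21 ± 0.04 (adjusted p 0.00102). The growth factor Tgfb1 rose by 0.14 ± 0.03 per SD of Col4a1 (adjusted p 0.00241). With Pxdn as covariate none of the genes in any of these lists passed, and the list medians of r ran from 0.153 to 0.264.

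Fibroblast and macrophage markers rose in part with the collagens. In bulk tissue, fewer cells of a type and less RNA per cell cannot be told apart. Of 7 fibroblast markers, 5 rose with Col1a1, among them Mfap5 by 0.40 ± 0.07 and Dpt by 0.32 ± 0.06 units per SD (adjusted p 0.00043 and 0.000798), and 3 rose with Col4a1. The mean of this list ran from 9.84 in BXD48 to 11.16 in BXD97, and Dpt ran from 12.37 in BXD95 to 14.30 in BXD69. Of 6 macrophage markers, 5 rose with Col1a1 and 5 with Col4a1. Mrc1, the mannose receptor, rose by 0.31 ± 0.04 per SD of Col1a1 (adjusted p 5.75e-06) and Csf1r by 0.27 ± 0.03 (adjusted p 7.33e-06). The macrophage list ran from 9.02 in BXD48 to 10.92 in BXD61, which are also the lowest and highest strains for Col1a1. Mrc1, Csf1r and the markers Emr1 and Cd68 were each highest in BXD61. The counts of this and the other lists were not repeated without that strain, so how far they rest on it is not known. Lyz2 ran from 10.39 in BXD95 to 12.70 in BXD61, and Cd163 lay below background. Their part in the result was not tested.

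Endothelial markers were called with Col4a1 in 6 of 10 and with Col1a1 in 0 of 10, and in the direct comparison of slopes 0 of 10 passed. Pecam1, an adhesion protein of endothelial junctions, rose by 0.13 ± 0.02 units per SD of Col4a1 (adjusted p 0.000304) and had 0.08 ± 0.03 per SD of Col1a1 (adjusted p 0.0658). The vascular cadherin Cdh5 rose by 0.10 ± 0.02 per SD of Col4a1 (adjusted p 0.00461). The mean of the endothelial list ran from 10.87 in BXD56 to 11.53 in BXD85. Mural cell markers were called in 3 of 9 with Col4a1 (Pdgfrb, Notch3 and Acta2) and 1 of 9 with Col1a1 (Acta2). The mural list ran from 10.53 in BXD43 to 11.06 in BXD85. All endothelial and mural markers were above background. With Pxdn, the endothelial list had a median r of 0.378, with 0 of 10 called. Their part in the result was not tested.

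Some white fat markers rose with both chains. Leptin (Lep), secreted by filled fat cells, rose by 0.82 ± 0.13 units per SD of Col1a1 (adjusted p 0.000112) and by 0.79 ± 0.13 per SD of Col4a1 (adjusted p 0.000323). Mest, a marker of fat expansion, rose by 0.69 ± 0.08 per SD of Col4a1 (adjusted p 1.42e-05). In all, 2 of 5 rose with Col1a1 and 3 of 5 with Col4a1. Retn leaned downwards without passing, with r = -0.324 for Col1a1 (adjusted p 0.299) and r = -0.463 for Col4a1, where its slope was -0.31 ± 0.10 (adjusted p 0.0588). The list ran from 9.50 in BXD90 to 11.51 in BXD61. Of 7 brown adipocyte markers, Cidea fell by 0.06 per SD of Col1a1 (adjusted p 0.048) and Elovl3 fell by 0.57 per SD of Col4a1 (adjusted p 0.0435), and Ucp1 did not pass. That list ran from 11.99 in BXD97 to 13.33 in BXD70. None of 6 general adipocyte markers passed in limma with either chain. Their part in the result was not tested.

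The other lists had no call in limma with either chain. Skeletal muscle had 0 of 10, with a median r of 0.322 for Col1a1 and 0.21 for Col4a1, and Acta1 ran from 12.05 in BXD65 to 15.31 in BXD97. With the muscle list as a second covariate, 24 of the 27 member pairs were still called, and the 3 lost were Lox with Col1a2, Col3a1 and Col5a1. Liver markers had 0 of 8, lymphocyte markers 0 of 7 with 6 of 7 genes below background, and Schwann cell markers 0 of 5.

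The genes most like each of 3 members were named by their r over 35 strains. Since they were picked for a high r among all probe sets, no permutation p is given for them, and limma's adjusted p is read in its place. For Col1a1 these were Col3a1, Col1a2, Lbp (r = 0.898, rho = 0.882), Rab31 (r = 0.875, rho = 0.847) and Klhl13 (r = 0.868, rho = 0.89), with adjusted p of 5.76e-10, 5.06e-08 and 1.26e-07 for the last 3. Lbp encodes a protein that binds bacterial lipopolysaccharide, and it ran from 9.05 in BXD95 to 11.50 in BXD97. For Col4a1 they were Col4a2, the non-muscle myosin Myh9 (r = 0.876, rho = 0.889), Hspg2 (r = 0.818, rho = 0.804), Col6a2 (r = 0.814, rho = 0.78) and the transcription factor Elf4 (r = 0.807, rho = 0.793), with adjusted p up to 4.71e-05. For Pxdn they were Syde1 (r = 0.712, rho = 0.639), the actin bundling protein Fscn1 (r = 0.687, rho = 0.666), the caveolar coat protein Cav1 (r = 0.674, rho = 0.606), Limd2 (r = 0.672, rho = 0.574) and Gm17751 (r = 0.669, rho = 0.602). None of them passed in limma, where adjusted p ran from 0.0704 to 0.104. Gm17751 ran from 5.84 to 6.47, below the background limit in every strain. Leaving out the strains farthest from the median, r was 0.87 for Lbp, 0.845 for Myh9 and 0.59 for Syde1.

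The parents differed in type I collagen. Col1a1 was 11.29 in DBA/2J and 10.63 in C57BL/6J, a difference of 0.66 units, and Col1a2 was 10.80 and 10.29, a difference of 0.51. With 1 array per parent these have no test. Of the 10 members, 2 were higher in DBA/2J by at least 0.5 units and 0 were lower by as much, against 6% and 6.96% of all probe sets. With arrays centred on the median, the count of 2 became 1. The median difference was 0.14 for the members and 0.01 for all probe sets. Col4a1 differed by 0.13, Col4a2 by 0.14, Lama4 by -0.02 and Pxdn by 0.02. The DBA/2J array also held the liver transcripts given above. Pxdn was above both parents in 28 of 35 BXD strains, while Lama4 was below both in 25. The parents were nearly equal for these genes, so only 1 strain for Pxdn and 2 for Lama4 lay between them. These counts therefore rest on the level of 1 array per parent, and no share over all probe sets was computed. Col1a1 lay between the parents in 16 strains.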

How the data were processed

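Brown fat RNA of 37 mouse strains was read on Affymetrix MoGene arrays. The deposited values are a score, set by the authors so that the 41345 probe sets of an array average 8 with an SD of 2. Affymetrix Expression Console is named in the submitters' processing notes, and the log base and summary method are not given in the sources used here. After leaving out 190 control probe sets, 41155 were used. Arrays correlated at 0.968 to 0.987. limma 3.58.1 (R 4.3.3; lmFit and eBayes, tested on simulated data) was fitted to 35 BXD arrays with 1 member, scaled to SD 1, as covariate, and p was adjusted by Benjamini-Hochberg over all probe sets outside that gene, with a threshold of 0.05. The slopes on Col4a1 and Col1a1 were compared by a contrast. Python 3.11.15, numpy 2.4.6, pandas 2.3.3 and matplotlib 3.10.9 gave the permutation tests (100000) and plots. Alternatives covered the parents, scaling, covariates, probe sets, ranks and strains left out. Named genes were all members, list genes that passed or served as examples (at most 5 per list by adjusted p), the 5 with the highest r to Col1a1, Col4a1 and Pxdn, and the defining markers and those with the brightest probe set. Members and lists were chosen with earlier results of these data known. Older symbols were matched through RefSeq synonyms.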

Additional observations from a re-analysis of the deposited data

How the results depend on the processing

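The number of probe sets called with Col1a1 was 1532. It was 838 with the first principal component as a second covariate and 677 without the 2 strains farthest from its median, and it ran from 819 (without BXD61) to 1916 when single strains were left out. With Col4a1 it was 2139, against 1381 without the 2 farthest strains, and 1632 to 2215 with single strains left out. With Pxdn, 0 became 4 with the parents included, 8 under quantile normalization, 4 with muscle markers as covariate and 21 with dim probe sets left out, and 0 to 7 with single strains left out (above 0 without BXD61, BXD83, BXD84, BXD85, BXD89 or BXD90). The 3 probe sets with unequal slopes became 0 with the principal component, with ranks and without the 2 farthest strains, and 0 to 5 with single strains left out, with 0 in 15 of 35. Fewer arrays or, with dim probe sets out, fewer tests were part of these settings; otherwise the cause was not tested. Member pairs called ranged from 20 to 29 over the settings, 22 to 29 with single strains left out, and 24 under the rule, chosen after seeing the data, that both genes pass as covariate. The parental count of 2 became 1 with arrays centred on the median, where Col1a2 differed by 0.49. The uncalled slope differences of Col5a1 and Col6a1 turned sign with the principal component, to 0.0178 and 0.00658. With single strains left out, that of Col5a1 ran from -0.0589 to 0.00265, that of Col6a1 from -0.075 to 0.00637, that of Lox from -0.0189 to 0.0915, and the uncalled slope of Lama4 on Col4a1 from -0.000866 to 0.0236. Of 210 single values under the other settings 199 were counted as unchanged, and of 630 with single strains left out, 605. For slopes, unchanged means the same direction and the same side of the threshold. For the parental differences among the 210, it means a shift smaller than the SD of the gene over the BXD strains. By that rule Col1a2 at 0.49 counts as unchanged, although it fell below the limit of 0.5 units. Low counts of strains and 1 array per strain limit all intervals, and no level can be compared between genes.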

Other observations

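Some transcripts ran against the collagens. The 5 genes with the lowest r to each chain were named after their values were seen, so no permutation p is given for them and no theme is read from them. With Col1a1 these were Ptpn4 (r = -0.787, rho = -0.799), Slc27a2 (r = -0.777, rho = -0.721), Mbtd1 (r = -0.738, rho = -0.752), Aldh9a1 (r = -0.726, rho = -0.67) and Tfb1m (r = -0.718, rho = -0.683), all over 35 strains. Slc27a2, which activates long-chain fatty acids, ran from 10.24 in BXD61, the strain with the most Col1a1, through a median of 12.37 to 13.72 in BXD43. It fell by 0.69 units per SD of Col1a1 (limma adjusted p 1.39e-05). With Col4a1 they were Acss1 (r = -0.808, rho = -0.783), Rbpms2 (r = -0.807, rho = -0.813), Dpy30 (r = -0.802, rho = -0.805), Ndufb9 (r = -0.793, rho = -0.794) and Arl2 (r = -0.789, rho = -0.8). Acss1, which makes acetyl-CoA in mitochondria, was lowest in BXD97, at 11.50, and highest in BXD64, at 12.79. Adjusted p for these 10 genes was at most 0.00111. Without the strains farthest from the median of the chain, r was -0.714 for Slc27a2 and -0.794 for Acss1.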
